A study of Mus musculus with 21 samples.

Results

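The 8 heavy chain constant genes of the mouse (Ighm, Ighd, Ighg3, Ighg1, Ighg2b, Ighg2c, Ighe and Igha) were followed through the states of a germinal centre response. They were taken by name and make up 8 of the 14493 genes in the deposited count matrix, and all 8 were found there. The constant gene that a B cell joins to its rearranged variable region sets its antibody class: Ighm gives IgM, Ighd IgD, the 4 Ighg genes the IgG subclasses, Ighe IgE and Igha IgA. A naive cell makes Ighm and Ighd from 1 precursor RNA by alternative splicing. Class switching deletes the DNA between switch regions and brings another gene behind the variable region. Before a gene switches, its own promoter gives a germline transcript that lacks a variable region. Counts per gene do not separate such transcripts from messenger RNA of a rearranged chain, and their part in any value here was not tested.

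Draining lymph nodes came from 6 mice, 2 on each of days 10, 16 and 22 of the primary response to 100 µg of NP-KLH, a hapten on a carrier protein, given under the skin in Sigma Adjuvant System. Every mouse also received 5 mg of tamoxifen by gavage, which turned on the eYFP label through Cre-ERT2; the promoter that drives the Cre, the strain and the age are not given in the sources used here, and no group lacked antigen or label. IgD-negative, eYFP-positive cells were sorted, tagged by mouse, pooled within a plasma cell (PC) and a non-PC fraction, and captured in 1 well per fraction with a 10x kit that reads the 5′ end of RNA. The sort gate removed cells with IgD protein on their surface, which bears on every Ighd value below.

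The authors named 6 states, and their rule is not given in the sources used here. They are plasma cells (PC, 242 cells), plasma cell precursors (prePC, 47), memory precursors (preMem, 522), cells passing to the dark zone (LZtoDZ, 232), dark zone cells (DZ, 2382) and light zone cells (LZ, 3194). The dark zone is where germinal centre B cells divide and mutate, and the light zone is where they are selected. Of the marker lists, all 5 plasma cell genes were highest in PC, 4 of 5 preMem genes in preMem and 3 of 4 dark zone genes in DZ. Of the 4 light zone genes only Cd86 peaked in LZ, and their summed level was 1070 CPM (counts scaled to a common total per sum) in preMem, 304 in DZ and 1020 in LZ. Depth was 573 to 1619 cells and 6260885 to 18599219 UMIs (counted RNA molecules) per mouse, with 1335 to 70744 UMIs per cell. Only 6 cell barcodes occurred in both wells. T cell markers summed to 6.38 to 122 CPM over the states, NK cell markers to at most 1.08 CPM and myeloid markers to 9.48 to 67.8 CPM.

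The 8 genes lie in 1 row on the minus strand of chromosome 12 (GRCm38, GENCODE M21), in the order Ighm, Ighd, Ighg3, Ighg1, Ighg2b, Ighg2c, Ighe, Igha. A read from the 5′ end can be given to a subclass only where the sequence differs, so the start of the first constant exon (CH1) of the 4 Ighg genes is shown. These are the first 60 bases of exon 1 of each gene, coding strand, with capitals at the 22 positions where the 4 genes do not all carry the same base. They span chr12:113330464-113330523 (Ighg1), chr12:113307874-113307933 (Ighg2b), chr12:113288873-113288932 (Ighg2c) and chr12:113361173-113361232 (Ighg3).
Ighg1: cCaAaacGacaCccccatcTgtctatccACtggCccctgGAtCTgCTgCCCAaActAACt
Ighg2b: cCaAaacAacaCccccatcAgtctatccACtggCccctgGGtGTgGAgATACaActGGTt
Ighg2c: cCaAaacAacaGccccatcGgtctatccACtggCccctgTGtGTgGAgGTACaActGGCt
Ighg3: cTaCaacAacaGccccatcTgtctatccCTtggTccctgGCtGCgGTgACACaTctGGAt
Over the whole 291 bases of this exon the pairs were equal at 78.4% to 88.3% of positions, with Ighg3 farthest from the others. Of all stretches of 50 bases in a gene's annotated transcripts, 5.49% in Ighg2c, 4.15% in Ighg2b, 1.58% in Ighg3 and 0.39% in Ighg1 also occurred in another of the 8 genes, and 0 in Ighm, Ighd, Ighe and Igha. Small values of 1 Ighg gene in cells led by another are therefore uncertain.

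The 8 genes held 107823 UMIs, or 0.157% of all. Plasma cells, which secrete antibody, held 60721 of these. The median cell had 225 heavy chain UMIs in PC, 15 in prePC, 5 in preMem, 11 in LZtoDZ, 6 in DZ and 5 in LZ. As a share of all UMIs the 8 genes took 1.23% ± 0.215 in PC and 0.0733% ± 0.00924 in LZ (SD, n = 6 mice each), and the ranges did not overlap (0.86% to 1.46% and 0.0628% to 0.0861%). In LZtoDZ the share was 0.054% ± 0.00571, the lowest mean of the 6 states, although its cells were the deepest with a median of 22505 UMIs.

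The makeup of the heavy chain UMIs differed by state in named ways. In PC Ighg1 had the highest mean share and Ighd hardly occurred, preMem were mostly Ighm with a large Ighd share, LZtoDZ carried more Ighe, and DZ carried more Ighg2b and Igha than LZ. Each value below is a gene's UMIs as a percentage of the UMIs of all 8, computed per mouse and state. A difference between 2 states was tested over mice with a 2-sided exact sign-flip test, whose smallest p is 0.03125 for 6 mice. After Benjamini-Hochberg adjustment over 56 such tests the lowest adjusted p was 0.109, so none of these share differences passed 0.05. Errors of shares and CPM are SDs over the 6 mice (5 for prePC, 2 within a day), errors of log2 differences are SEs, and counting intervals cover counting error only. CPM printed with a log2 difference were also scaled by the normalisation factors (TMM) of that fit, so they differ between fits.

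**Figure D1:**
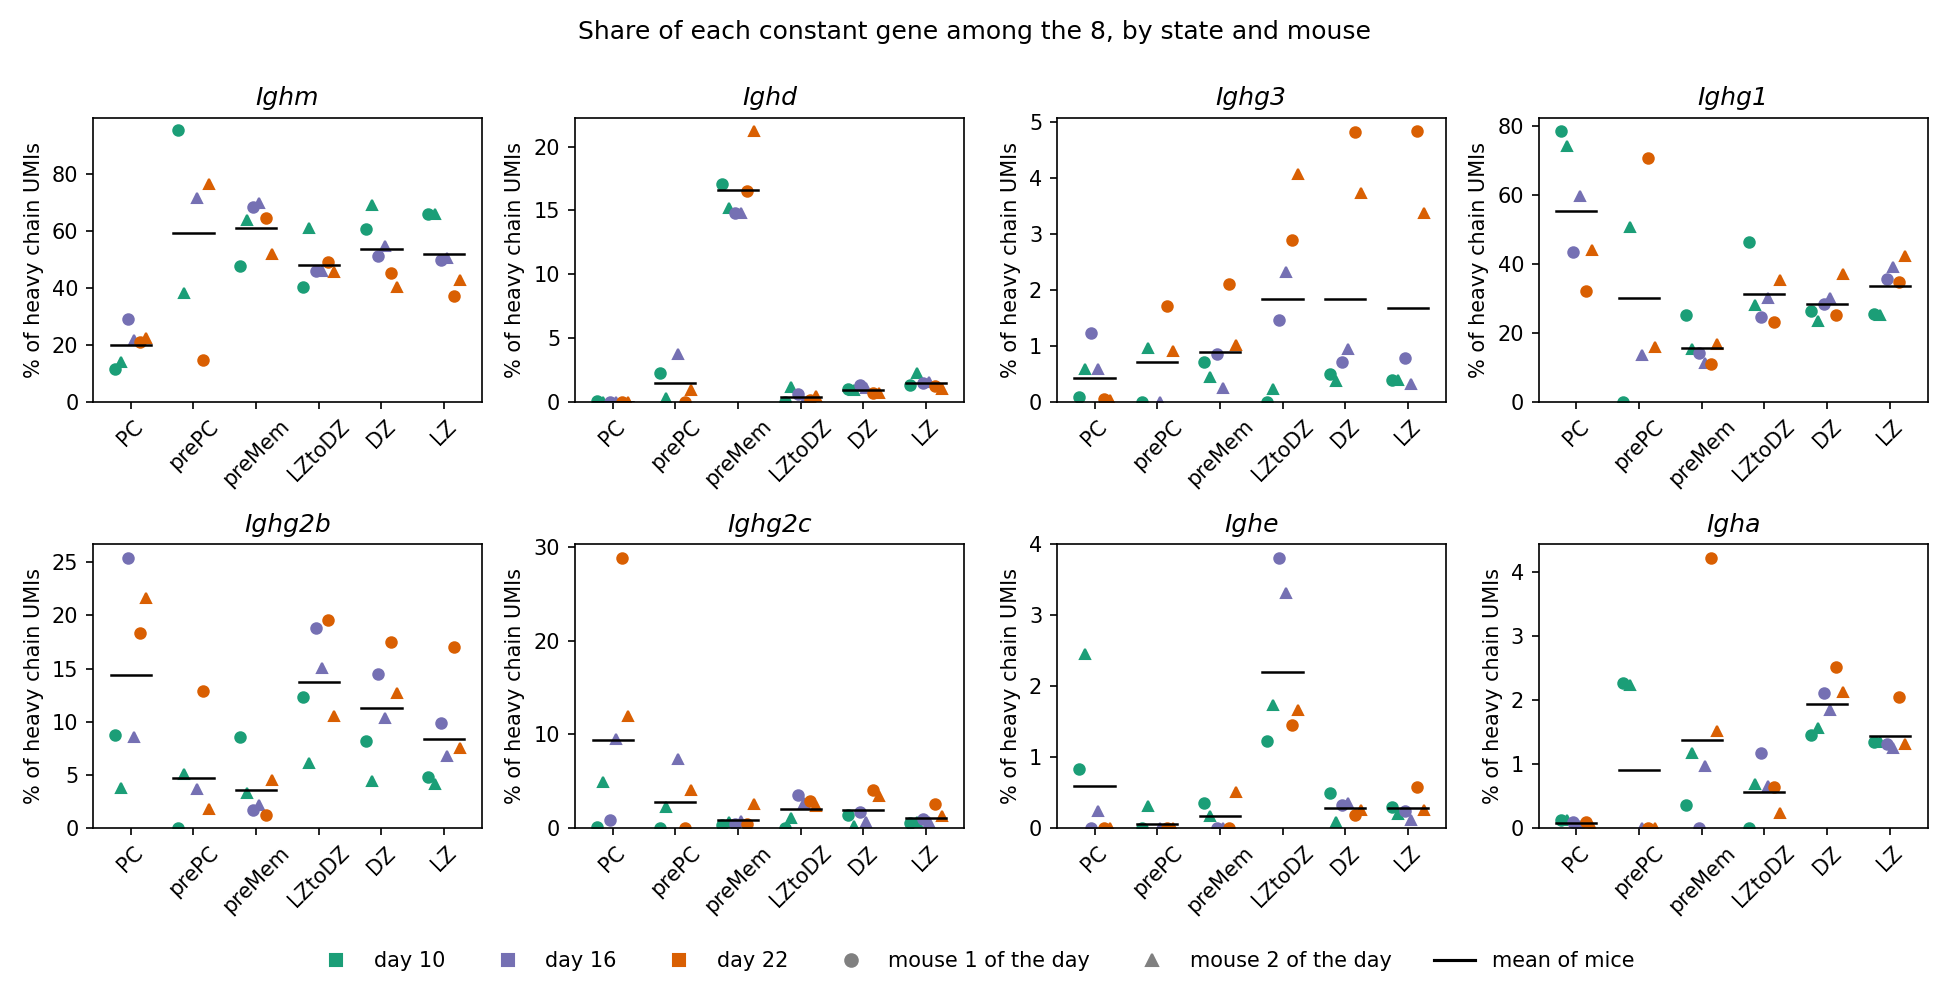
Share of each of the 8 genes among their summed UMIs (y axis, %) in PC, prePC, preMem, LZtoDZ, DZ and LZ (x axis). Points are mice, coloured by day, and bars are means; the 6 preMem mice lie at 14.8% to 21.2% for Ighd, above every mouse of every other state.

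Ighd, which follows Ighm in the locus and is normally kept on mature naive cells, stood apart in preMem. Its lowest, median and highest shares were 14.8%, 15.8% and 21.2% in preMem and 1.03%, 1.37% and 2.26% in LZ. The groups did not overlap, and preMem was higher by 15.1 points, in 6 of 6 mice (exact p = 0.03125 and 0.109 after adjustment). In the fit across all genes Ighd rose in preMem, by 4.05 ± 0.21 on the log2 scale (179 ± 25.8 CPM in preMem and 10.6 ± 4.26 in LZ, edgeR adjusted p = 6.3e-11). Of the 7 members tested it was 1 of 3 that passed, beside Ighm, which rose (0.85 ± 0.17), and Ighg1, which fell (−0.50 ± 0.12). Of all genes 31.8% passed, 14.7% higher and 17% lower, so a pass alone says little about a member.

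Ighd was also set against Ighm within the same cells. In cells led by Ighm or Ighd, meaning that 1 of them had more UMIs than any other member and the cell had at least 3, Ighd made up 19.6% ± 4.90 of the Ighm and Ighd UMIs in preMem and 2.21% ± 0.708 in LZ. The 6 preMem mice ranged over 13.9% to 26.3% and the LZ mice over 1.27% to 3.09%, with no overlap (higher in 6 of 6, exact p = 0.03125, adjusted over 25 tests 0.112). This measure was added after the data were seen. Depth differs between the states, so cells were also thinned to 4727 UMIs, which left out 662 shallower cells, 203 of the 522 preMem cells and 305 of the 3194 LZ cells among them. A UMI of Ighd was then found in 37.6% of 319 preMem cells and 4.22% of 2889 LZ cells, against 50.4% of 522 and 7.29% of 3194 before. In PC, whose cells should lack the RNA, 2 of 242 had a UMI of Ighd before thinning at a median depth of 18722.5 UMIs, against 5356.5 in preMem. But 234 of these PC came from the PC well and 486 of the preMem from the non-PC well. PC thus do not measure stray Ighd UMIs in the well that held most preMem. In the non-PC well alone the preMem share was 13.1 points above that of LZ (exact p = 0.03125).

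Ighm itself was 61.0% ± 9.10 of the heavy chain UMIs in preMem and 52.0% ± 11.8 in LZ, and the mice of the 2 states overlapped (higher in 4 of 6, exact p = 0.25). Counted by cell the contrast was wider: Ighm led in 75.1% of 414 preMem cells (95% interval 70.7% to 79.2%, exact binomial) and in 49.1% of 2382 LZ cells. Over mice that was 74.8% ± 10.3 and 48.9% ± 14.9, higher in 5 of 6 (exact p = 0.0625). Ighg1, the main IgG subclass of protein responses in mice, was 15.5% ± 5.16 of the UMIs in preMem and 33.7% ± 7.09 in LZ. Its preMem mice lay at 11%, 14.6% and 25% (lowest, median, highest) and its LZ mice at 25%, 35.2% and 42.3%, so the ranges met at the day 10 mice (lower in 6 of 6, exact p = 0.03125). With Ighd left out of the sum the Ighg1 difference was −15.5 points and missed 0.05 (exact p = 0.0625). Ighg2b averaged 3.59% ± 2.71 in preMem and 8.37% ± 4.69 in LZ, lower in 5 of 6 mice (exact p = 0.125). Ighg3, Ighg2c, Ighe and Igha each overlapped between the 2 states, with exact p of 0.4062 to 0.875.

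**Figure D2:**
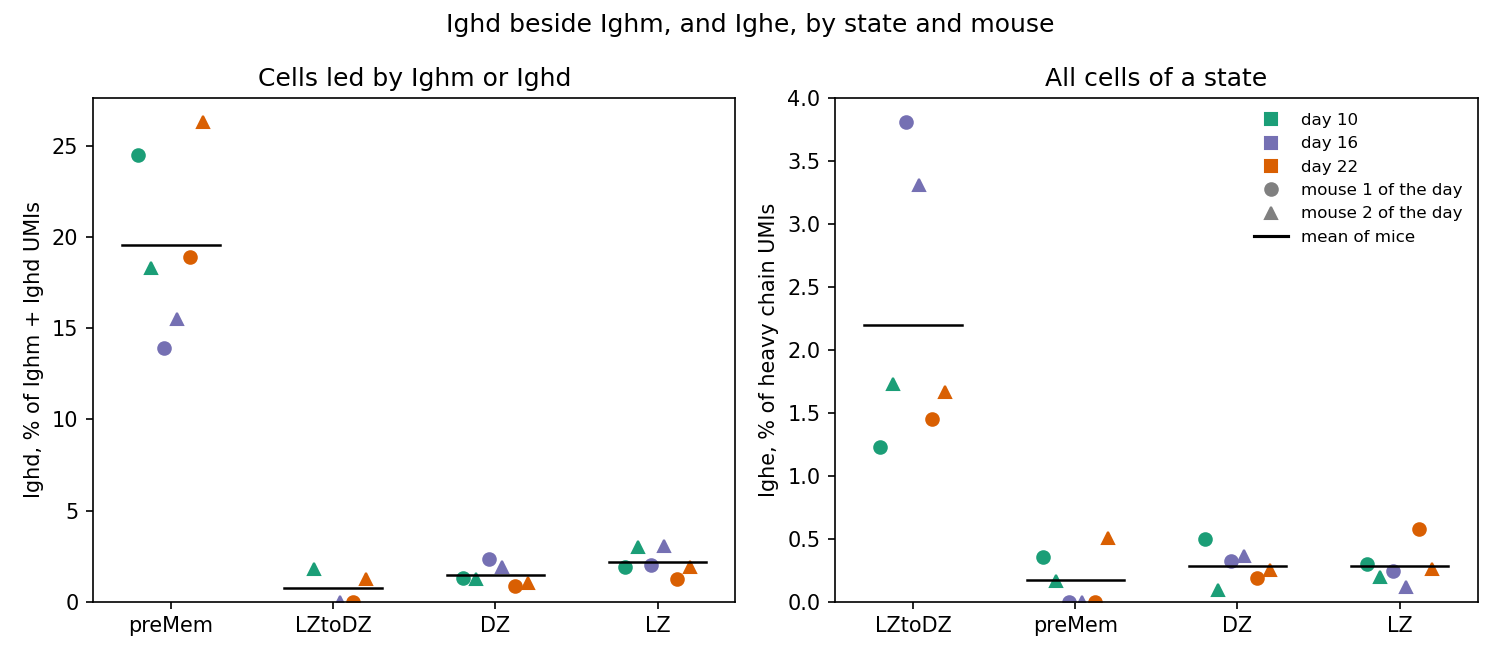
Left, Ighd as % of Ighm plus Ighd UMIs (y axis) in cells led by either gene, for preMem, LZtoDZ, DZ and LZ; right, Ighe as % of the UMIs of all 8 genes for LZtoDZ, preMem, DZ and LZ. Points are mice and bars are means; preMem lies at 13.9% to 26.3% on the left and LZtoDZ at 1.23% to 3.81% on the right, each above all other states shown.

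Other genes of switching moved beside these in preMem. Of the class switch machinery, 15 of 31 genes tested fell against LZ, where 17% of all genes were lower and 14.7% higher, and the rest did not pass (median log2 difference −0.45, against 0.00 over all genes tested). Among them were Hmces, which shields abasic DNA sites (−1.41 ± 0.09), the histone H2afx (−1.70 ± 0.08) and the uracil glycosylase gene Ung (−1.75 ± 0.20). Markers of cycling cells summed to 304 CPM in preMem, 461 in PC and 700 in LZ. Their relation to the falls of machinery genes in preMem and PC was not tested. Of the receptors and factors that carry switch signals, 8 of 18 tested rose and the rest did not pass (median 0.46). They included Tgfbr2, a receptor chain for TGF-beta (1.2 ± 0.12), the interleukin-4 receptor gene Il4ra (0.77 ± 0.16) and the interferon-gamma receptor gene Ifngr2 (0.85 ± 0.19). Of the light chain and assembly genes 6 of 14 rose, among them the lambda constant genes Iglc2 (1.99 ± 0.09) and Iglc3 (1.07 ± 0.07), and 4 fell, among them the joining chain Jchain (−1.44 ± 0.10).

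In plasma cells Ighg1 took the largest share, but unevenly over mice. For mouse 1 and mouse 2 of a day it was 78.4% and 74.1% on day 10, then 43.5% and 59.6% on day 16, and 32.0% and 44.1% on day 22. In LZ these animals gave 25.4% and 25%, then 35.7% and 39.0%, and last 34.6% and 42.3%. PC were thus above LZ in 5 of 6 mice, with day 22 mouse 1 the exception (55.3% ± 18.5 in PC and 33.7% ± 7.09 in LZ, exact p = 0.09375). Against preMem the Ighg1 share of PC was 39.8 points higher and above it in each of the 6 mice (exact p = 0.03125).

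Ighm was the reverse: 19.8% ± 6.24 in PC and 52.0% ± 11.8 in LZ, lower in 6 of 6 mice with no overlap (exact p = 0.03125). Ighg2b averaged 14.4% ± 8.57 in PC and 3.59% ± 2.71 in preMem (higher in 6 of 6, exact p = 0.03125), and 8.37% ± 4.69 in LZ (higher in 5 of 6, exact p = 0.0625). Taking each cell's own share in place of summed UMIs left the Ighg2b difference from preMem at 7.45 points with an exact p of 0.09375. With Ighd left out of the sum it was 10.1 points (exact p = 0.125). Cells led by Ighg2b had a higher percentage in PC than in preMem in 5 of 6 mice (exact p = 0.09375).

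Ighg2c, the subclass of type 1 responses, varied widely in PC. Its shares in PC were 0.158% and 4.96% on day 10, 0.838% and 9.48% on day 16, and 28.8% and 12.0% on day 22, where 10 of 43 PC of mouse 1 and 1 of 12 of mouse 2 were led by it. The 3 cells with the most UMIs held 7.06% to 46.4% of a mouse's heavy chain UMIs in PC. Ighg3 was at 0.0268% to 1.23% in PC. Igha was 0.0877% ± 0.0458 in PC and 1.44% ± 0.302 in LZ, lower in 6 of 6 mice with no overlap (exact p = 0.03125). Ighd had 2 UMIs among the 60721 of all PC: 1 each in day 10 mice 1 and 2, and 0 in the other 4 mice, where 3 counts of the total would allow 0.0246% to 0.148%.

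Levels in CPM tell of the amount of RNA as well as its makeup. Against LZ, 7 of the 7 members tested passed in PC, where 48.4% of all genes passed, 21.7% higher and 26.8% lower. The filter on low counts left out Ighe, and Ighd (0.703 ± 1.49 CPM in PC) could pass it only through LZ. That count thus says little about the members as a set. Ighg2c rose by 6.96 ± 0.88 on the log2 scale, Ighg1 by 5.33 ± 0.22, Ighg2b by 5.32 ± 0.33, Ighm by 3.24 ± 0.34, Ighg3 by 2.93 ± 0.91 and Igha by 0.78 ± 0.28, whereas Ighd fell by 4.36 on that scale (SE 0.58). Ighg1 stood at 8300 ± 2920 CPM in PC and 197 ± 23.2 CPM in LZ (edgeR adjusted p = 2.3e-08). Ighm stood at 3050 ± 1190 CPM in PC and 320 ± 118 CPM in LZ (adjusted p = 2.1e-05), so its level rose while its share was lower. The Igha call (adjusted p = 0.042) was lost under 7 of 12 alternatives, and the Ighg3 call (adjusted p = 0.021) without day 10 mouse 2 (2.19, adjusted p = 0.11), day 16 mouse 1 (2.47, 0.065) or day 16 mouse 2 (2.59, 0.075). The PC well gave 234 of the 242 PC, so state and well cannot be told apart for PC. The 8 PC of the other well had a median of 38.5 heavy chain UMIs, against 228 in the PC well.

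Against preMem, 4 of the 4 members tested passed in PC, with 67.6% of all genes called (32.8% higher and 34.8% lower): Ighg1 rose by 5.74 ± 0.15, Ighg2b by 5.72 ± 0.58 and Ighm by 2.25 ± 0.22, and Ighd fell by 7.76 (SE 0.33; 0.702 ± 1.49 CPM in PC and 168 ± 26.9 in preMem, adjusted p = 9.5e-08). Ighg3, Ighg2c, Ighe and Igha were left out there by the filter on low counts. A member high in only 1 of the 2 states can pass that filter through this state, as Ighd did through preMem. The 4 of 4 thus say little about the members as a set. Of the assembly and light chain genes, 10 of 14 rose in PC against LZ, where 21.7% of all genes were higher and 26.8% lower (median 2.76), with Jchain at 4.6 ± 0.13, the secretory factor Xbp1 at 4.44 ± 0.14, the chaperone partner Mzb1 at 3.94 ± 0.14 and the kappa constant gene Igkc at 3.47 ± 0.13. Of the class switch machinery, 16 of 31 fell (median −0.57, against −0.13 over all genes tested), and Hmces fell by 2.13 (SE 0.13). Of the switch signal genes 11 of 18 fell, Rel by 3.44 (SE 0.23) and Cd40 by 3.37 (SE 0.32) among them, and 2 rose, 1 of them the plasma cell factor Irf4 (5.42 ± 0.16).

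**Figure D3:**
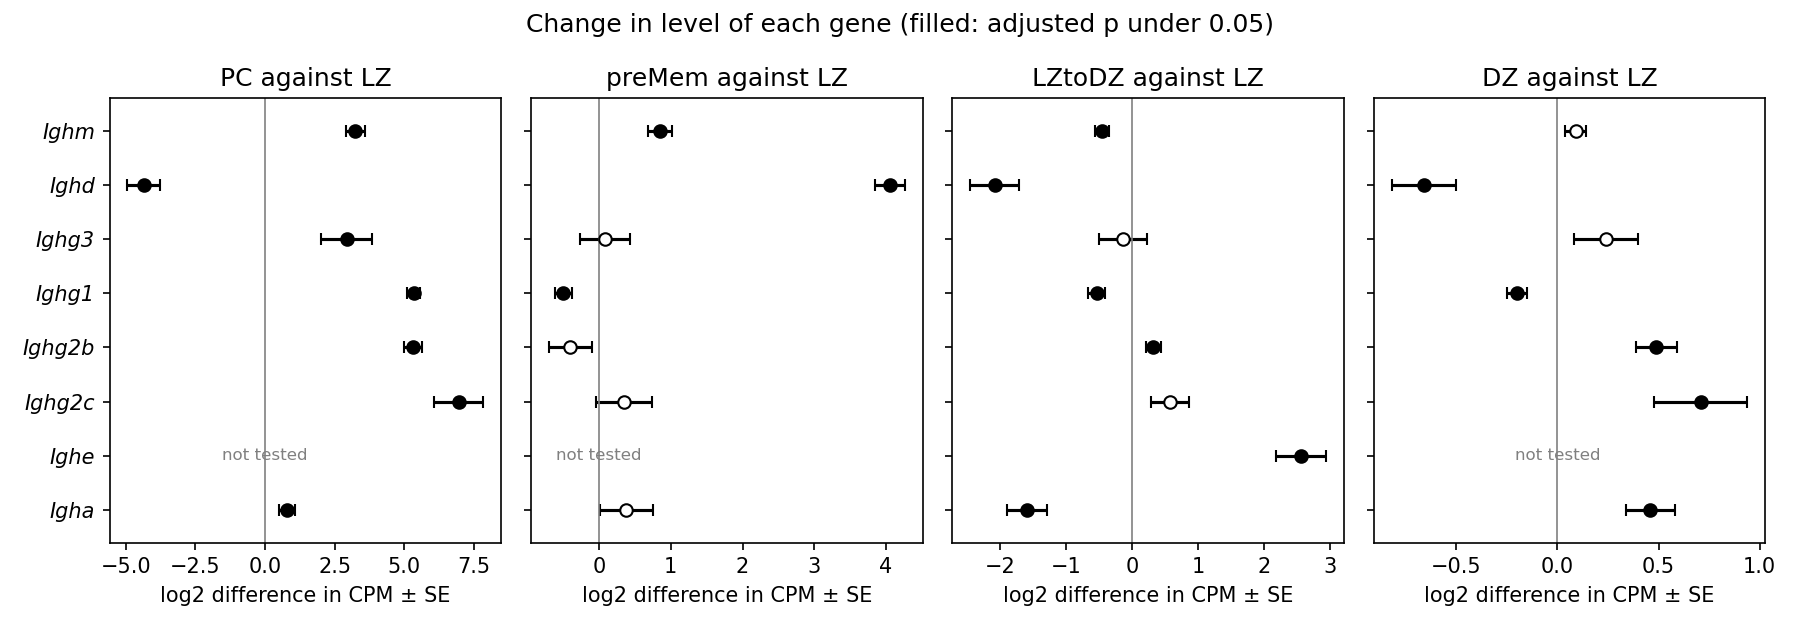
Difference in level on the log2 scale (x axis, CPM, point and SE from edgeR) of each member (y axis) in PC, preMem, LZtoDZ and DZ, each against LZ; filled points passed an adjusted p of 0.05 and the x axes differ between panels. Ighd has the largest positive value in preMem (4.05) and the only negative one in PC (−4.36).

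Counted by cell, most of the heavy chain UMIs of a plasma cell usually came from 1 gene. The leading gene held a median of 98.2% of a cell's heavy chain UMIs in PC, 79.2% in prePC, 75% in preMem, 76.5% in LZtoDZ, 81.8% in DZ and 83.3% in LZ. For the 8 PC of the non-PC well the median was 81.5%. Ighg1 led in 158 of 241 PC, Ighm in 37, Ighg2b in 21, Ighg2c in 19, Ighe in 4 and Ighg3 in 2, and the count was 0 for Ighd and Igha (which allows up to 1.52% of PC each, exact binomial interval). Over mice Ighg1 led in 59.5% ± 11.5 of PC and 40.0% ± 9.88 of LZ cells (higher in 6 of 6, exact p = 0.03125, adjusted p = 0.1944). Asking that the leading gene hold over 75% left this at 19.2 points with an exact p of 0.09375. Ighm led in 18.4% ± 4.82 of PC and 48.9% ± 14.9 of LZ cells (lower in 6 of 6, exact p = 0.03125). The median heavy chain UMI count was 201 in PC led by Ighm, 222 in those led by Ighg1, 250 for Ighg2b and 266 for Ighg2c, with ranges that overlapped widely (30 to 788, 5 to 969, 36 to 679 and 28 to 1309).

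**Figure D4:**
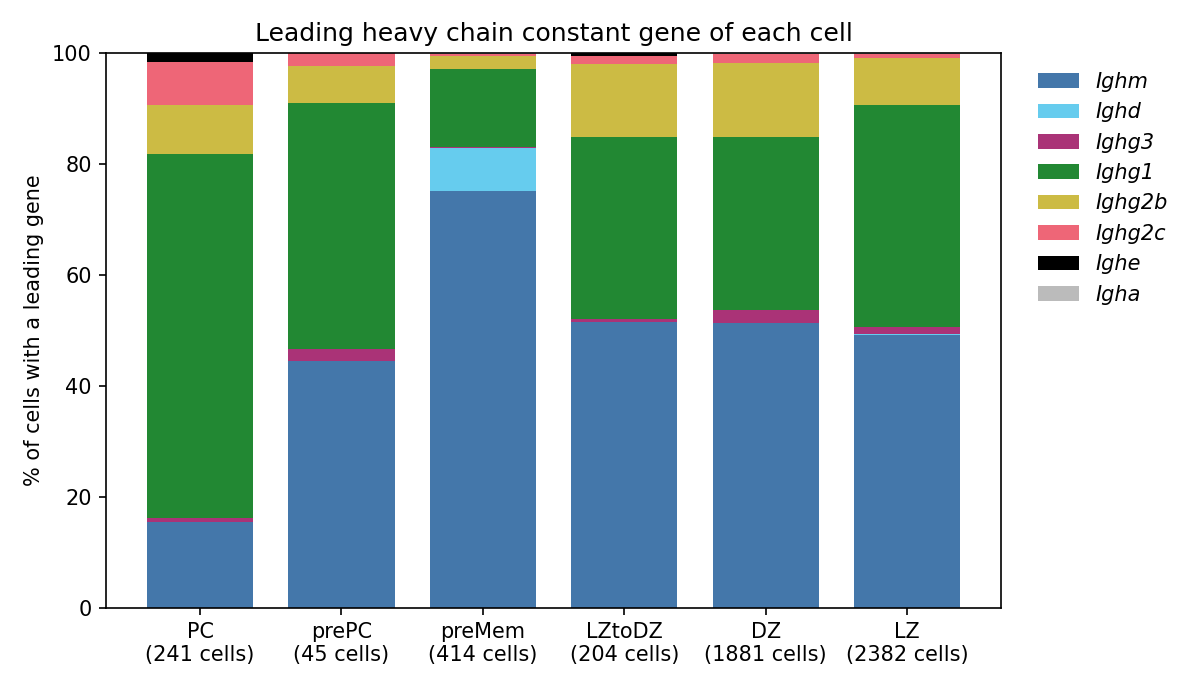
Percentage of cells (y axis) led by each of the 8 genes in PC, prePC, preMem, LZtoDZ, DZ and LZ (x axis, with the number of cells that had a leading gene), cells of all mice together. Ighg1 leads in 65.6% of PC and 14.0% of preMem, and Ighm in 15.4% of PC and 75.1% of preMem. Day 10 mouse 2 alone gave 127 of the 241 PC and 232 of the 414 preMem counted.

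UMIs outside the leading gene were rarest in plasma cells. In PC of the PC well, Ighg1 gave 1.45% of the UMIs of cells led by Ighm, and Ighm gave 3.29% in cells led by Ighg1. In germinal centre cells (DZ, LZtoDZ and LZ) of the non-PC well that Ighm led, Ighg1 gave 9.73% of the heavy chain UMIs, Ighg2b 2.82% and Igha 1.33%. In those that Ighg1 led, Ighm gave 12.0%, Ighg2b 1.95% and Igha 1.63%. LZ cells of the PC well had a lower median for the leading gene (75%, 51 cells) than LZ cells of the non-PC well (83.3%, 2331 cells). The source of these minor UMIs was not tested. Ighe in PC shows how far 1 cell can carry a gene: 730 of its 874 UMIs there lay in 1 of 12 cells, and 3 of the 4 PC led by it came from day 10 mouse 2.

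Ighe was rare in every state and had its highest mean share in LZtoDZ, the small population with the highest Myc level. Its lowest, median and highest shares were 1.23%, 1.70% and 3.81% in LZtoDZ and 0.117%, 0.255% and 0.582% in LZ, with no overlap and LZtoDZ above LZ in 6 of 6 (exact p = 0.03125 and 0.109 after adjustment). From the same UMIs, the level was higher by 2.56 ± 0.38 on the log2 scale (12.0 ± 5.74 CPM in LZtoDZ and 2.02 ± 0.964 in LZ, edgeR adjusted p = 4.4e-05). Ighe passed the filter on low counts only through LZtoDZ, where it is high, so this call adds no separate support. The filter left it out of DZ, preMem, prePC and PC against LZ. Share and level both rest on 66 UMIs in 35 of 232 LZtoDZ cells and 56 UMIs in 40 of 3194 LZ cells. Of the cells with Ighe in LZtoDZ 1 was led by it, whereas 14 of 105 cells led by Ighm (13.3%), 11 of 67 led by Ighg1 (16.4%) and 6 of 27 led by Ighg2b held a UMI of it. In LZ the values were 14 of 1170 (1.2%) and 12 of 952 (1.26%) for Ighm and Ighg1. Because LZtoDZ cells were deeper (a median of 22505 UMIs, against 7784.5 in LZ), cells were thinned to 4727 UMIs (leaving out 4 of 232 LZtoDZ and 305 of 3194 LZ cells), after which 5.70% of 228 LZtoDZ and 0.623% of 2889 LZ cells had a UMI of Ighe. Over mice that was 5.88% ± 2.45 and 0.590% ± 0.167, higher in 6 of 6 (exact p = 0.03125, adjusted over 25 tests 0.112). This measure, too, was added after the data were seen.

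In LZtoDZ 6 of the 8 members tested passed against LZ, where 56.4% of all genes passed, 27.5% higher and 28.9% lower. Beside Ighe, Ighg2b rose by 0.32 ± 0.12, and Ighm (−0.46 ± 0.10), Ighg1 (−0.54 ± 0.13), Igha (−1.60 ± 0.30) and Ighd (−2.09 ± 0.37) fell. The Ighg2b call (adjusted p = 0.041) was lost under 7 of 12 alternatives, without day 10 mouse 1 (0.29, adjusted p = 0.06), day 16 mouse 1 (0.27, 0.13) or day 16 mouse 2 (0.22, 0.18) among them. By share, Ighg2b was 13.7% ± 5.15 in LZtoDZ and 8.37% ± 4.69 in LZ (higher in 6 of 6), Igha 0.568% ± 0.407 and 1.44% ± 0.302 (lower in 6 of 6), and Ighd 0.396% ± 0.443 and 1.46% ± 0.426 (lower in 6 of 6), each with an exact p of 0.03125. Counted by leading gene, the Ighg2b difference had no single direction. Ighg2b led in 14.7% ± 8.78 of LZtoDZ and 8.67% ± 5.66 of LZ cells (higher in 3 mice, lower in 3, exact p = 0.25). The Igha difference of −0.871 points was −0.643 (exact p = 0.125) in the non-PC well alone and −0.725 (exact p = 0.0625) as a mean over cells. LZtoDZ held only 11 to 54 cells per mouse. Batf, a factor needed for class switching in mice, rose by 2.46 ± 0.19 in LZtoDZ. Of the 18 switch signal genes tested 5 rose and 9 fell (median −0.35, against −0.04 over all genes tested), with falls in Il4ra (−1.60 ± 0.14), Tgfbr2 (−1.55 ± 0.14) and the interferon-gamma receptor gene Ifngr1 (−1.13 ± 0.09). Of the machinery genes 12 of 32 rose and 5 fell, and of the light chain and assembly genes 10 of 14 fell, including the receptor partners Cd79b (−1.46 ± 0.05) and Cd79a (−1.39 ± 0.05).

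Between the zones the makeup differed by a few points. Ighg2b had shares of 4.42%, 11.6% and 17.5% (lowest, median, highest) in DZ and 4.18%, 7.15% and 17.0% in LZ; the ranges overlapped, but DZ was higher in each of the 6 mice, by 2.90 points on average (exact p = 0.03125, adjusted p = 0.109). Igha was also higher in DZ in 6 of 6 mice (1.94% ± 0.399 in DZ and 1.44% ± 0.302 in LZ) and Ighd lower in 6 of 6 (0.932% ± 0.244 and 1.46% ± 0.426), with the same exact p. A UMI of Igha was found in 338 of 2382 DZ and 273 of 3194 LZ cells. Yet Igha led only 4 of 1881 DZ and 3 of 2382 LZ cells with a leading gene (exact p = 0.875 over mice). The Ighd difference of −0.528 points was −0.429 (exact p = 0.0625) in the non-PC well alone and −0.354 (exact p = 0.125) as a mean over cells. Ighm was 53.5% ± 10.5 in DZ and 52.0% ± 11.8 in LZ, higher in 4 of 6 mice (exact p = 0.4688). Ighg1 was lower in DZ in 5 of 6 mice (28.3% ± 4.90 and 33.7% ± 7.09, exact p = 0.0625).

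In the fit across all genes 5 of the 7 members tested passed in DZ against LZ, with 33.9% of all genes called, 17.4% higher and 16.5% lower. Ighg2b (0.49 ± 0.10), Ighg2c (0.71 ± 0.23) and Igha (0.46 ± 0.12) rose and Ighd (−0.66 ± 0.16) and Ighg1 (−0.20 ± 0.05) fell. The Ighg2c call was lost without day 10 mouse 1 (0.65, adjusted p = 0.057), day 16 mouse 1 (0.65, 0.076), day 22 mouse 1 (0.68, 0.10) or day 22 mouse 2 (0.49, 0.15). Without the mouse as a replicate block, Ighd (adjusted p = 0.07), Ighg1 (0.17), Ighg2b (0.21) and Ighg2c (0.22) missed 0.05, and DESeq2 did not call Ighd (adjusted p = 0.10), Ighg2c (0.17) or Igha (0.15). By leading gene, Ighg2b led in 13.1% ± 5.15 of DZ and 8.67% ± 5.66 of LZ cells (higher in 6 of 6, exact p = 0.03125, adjusted p = 0.1944). Asking for at least 10 heavy chain UMIs gave 3.27 points with an exact p of 0.1875. Of the machinery genes 8 of 33 rose in DZ and 7 fell, with Hmces at 1.2 ± 0.04 and the repair scaffold Xrcc1 at 0.56 ± 0.05 among those that rose. Of the switch signal genes 15 of 18 fell, including Cd40 (−1.44 ± 0.07) and Batf (−1.36 ± 0.10).

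The 47 prePC were too few for a firm makeup. They came from 5 mice with 3 and 28 cells on day 10, 5 in day 16 mouse 2, and 5 and 6 on day 22. Ighm shares were 95.5% and 38.1%, 71.6%, and 14.7% and 76.4% in these mice, and Ighg1 shares 0% and 50.7%, 13.6%, and 70.7% and 15.9%. Of the 45 cells with a leading gene Ighm led 20 and Ighg1 20. Each share test of prePC against LZ or PC had a smallest possible p of 0.0625. Against LZ, Ighm (0.75 ± 0.20) and Ighg2c (2.35 ± 0.43) of the 7 members tested rose, with 8.94% of all genes called, 3.79% higher and 5.15% lower. The Ighg2c value rests on 14 UMIs in day 10 mouse 2, 6 in day 16 mouse 2 and 9 in day 22 mouse 2. Day 10 mouse 1 and day 22 mouse 1 had 0. By share, Ighg2c was above LZ in 3 of 5 mice (exact p = 0.4375). With cells of the non-PC well alone the Ighm value was −0.23 (adjusted p = 0.7), and without day 22 mouse 2 it was 0.30 (adjusted p = 0.62); DESeq2 (adjusted p = 0.17) and the fit without the mouse block (adjusted p = 0.14) did not call it. Against PC, the filter on low counts left out Ighd, Ighg3, Ighe and Igha. The 4 members tested were those with the highest mean levels in PC, so their falls say little about the members as a set. Ighg2c fell by 5.39 (SE 0.51), Ighg1 by 4.81 (SE 0.62), Ighg2b by 4.71 (SE 0.45) and Ighm by 2.05 (SE 0.38). Of all genes 31.5% were called, 15% higher and 16.5% lower.

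Ighm had a lower mean share at each later day in both zones. In LZ its shares were 65.8% and 66% on day 10, then 49.7% and 50.3% on day 16, and 37.2% and 42.8% on day 22. In DZ they were 60.8% and 69.1%, 51.1% and 54.5%, and 45.2% and 40.1%. The days did not overlap in either zone, and the slope was −2.16 points per day in LZ and −1.86 in DZ. Each had an exact p of 0.0222 over the 90 ways of giving the 6 mice their days, the smallest possible, and 0.107 after adjustment over 24 tests. In preMem the shares were 47.5% and 63.9%, 68.2% and 69.8%, and 64.6% and 52.0%; the days overlapped and no slope was detectable (0.218 points per day, exact p = 0.822). The slope of the difference between preMem and LZ was 2.38 points per day (exact p = 0.0889, adjusted over 16 tests 0.254). LZ and preMem were thus not shown to differ in their course, and preMem was not tested against DZ in this way.

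**Figure D5:**
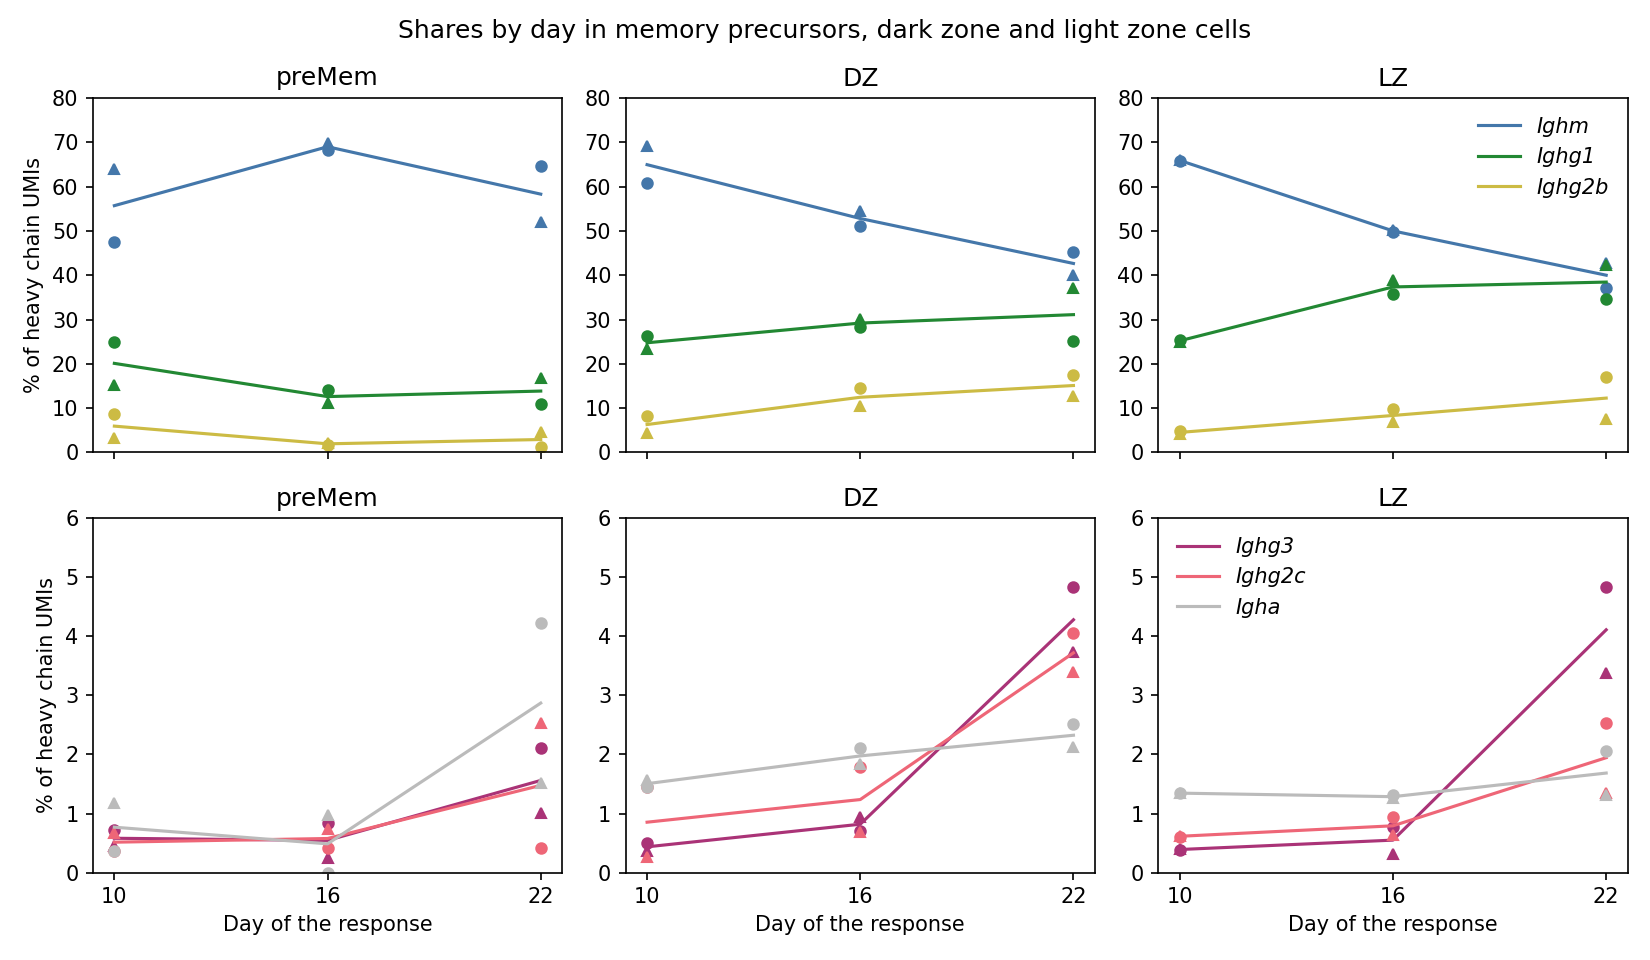
Shares of Ighm, Ighg1 and Ighg2b (top) and of Ighg3, Ighg2c and Igha (bottom) among heavy chain UMIs (y axis, %) on days 10, 16 and 22 (x axis) in preMem, DZ and LZ. Points are mice and lines join the day means; the Ighm mean is lower at each later day in DZ and LZ, at 42.6% and 40.0% on day 22.

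Ighg3, the next gene after Ighd in the locus, was highest on day 22. Its shares in LZ were 0.390% and 0.391% on day 10, 0.777% and 0.322% on day 16, and 4.84% and 3.38% on day 22. In DZ they were 0.500% and 0.372%, 0.704% and 0.934%, and 4.83% and 3.73%. Day 22 thus lay above every earlier mouse in both zones (exact p = 0.0667 in LZ and 0.0222 in DZ). In preMem it was 0.714% and 0.448%, 0.847% and 0.243%, and 2.11% and 1.01%, from 1 to 8 UMIs per mouse. By cell, Ighg3 led in 0%, 0.536% and 4.81% of DZ cells and 0.0858%, 0.166% and 3.23% of LZ cells on days 10, 16 and 22 (means of 2 mice). In DZ of day 22, Ighg3 gave 205 of 4245 heavy chain UMIs in mouse 1 and 119 of 3187 in mouse 2, with both mice above every earlier one.

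Ighg1, Ighg2b and Ighg2c had higher mean shares on each later day in both zones. Ighg1 in LZ averaged 25.2%, 37.4% and 38.5% on days 10, 16 and 22 (exact p = 0.0667), and in DZ 24.7%, 29.2% and 31.1% (exact p = 0.244). Ighg2b averaged 4.51%, 8.34% and 12.3% in LZ (exact p = 0.0667) and 6.30%, 12.4% and 15.1% in DZ (exact p = 0.0444). Ighg2c averaged 0.614%, 0.792% and 1.95% in LZ (exact p = 0.0222) and 0.855%, 1.24% and 3.72% in DZ (exact p = 0.0444). Igha in DZ averaged 1.51%, 1.97% and 2.33% (exact p = 0.0222). None passed after adjustment over the 24 tests, where 0.107 was the lowest. The 8 shares sum to 100%, so a share can rise while the level does not. Day 22 levels of Ighg1 differed from day 10 by 0.17 ± 0.10 in LZ and −0.01 ± 0.18 in DZ (log2). For Ighg2b these values were 1.01 ± 0.34 and 0.95 ± 0.27, and for Ighg2c 1.21 ± 0.33 and 2 ± 0.59. Igha in DZ differed by 0.28 ± 0.17, and edgeR called none of these levels. In preMem, cells led by Ighg1 made up 17.0%, 12.6% and 8.30% on the 3 days (exact p = 0.0222, adjusted p = 0.133), while its UMI share gave an exact p of 0.244.

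On the scale of levels, day 22 was set against day 10. In LZ, 2 of the 8 members tested passed, with 1.52% of all genes called (0.666% higher and 0.851% lower). Ighm fell by 1.17 on the log2 scale (SE 0.08; 253 ± 31.5 CPM on day 22 and 568 ± 20.2 on day 10, edgeR adjusted p = 0.0012) and Ighg3 rose by 2.95 ± 0.33 (25.9 ± 5.92 and 3.37 ± 0.123 CPM, adjusted p = 0.0049). Without day 10 mouse 2 (2.89) or day 22 mouse 1 (2.69) the adjusted p of Ighg3 was 0.056. In DZ the same 2 of 8 passed, with 0.533% of all genes called (0.23% higher and 0.303% lower): Ighm fell by 0.95 (SE 0.08, adjusted p = 0.0015) and Ighg3 rose by 3 ± 0.25 (28.4 ± 4.19 CPM on day 22 and 3.69 ± 0.845 on day 10, adjusted p = 0.0015). In preMem edgeR called 0 of the 4 members tested and 0.079% of all genes (0.0263% higher and 0.0526% lower), 0 members having an unadjusted p under 0.05 (the lowest was 0.15), and DESeq2 called 0 of these members. A level summed over cells does not tell fewer cells of a class from less RNA per cell. Counted by cell, those led by Ighm made up 67.2%, 44.6% and 34.8% of LZ cells on days 10, 16 and 22 (exact p = 0.0222, adjusted p = 0.133).

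The levels of 3 members over the 35 sums of mouse and state were set beside those of 4796 genes. Closest to Ighg1 were Dnajb9 (Pearson r = 0.95), Bet1 (0.93) and Sec61a1 (0.93), and closest to Ighg2b were Dnajb9 (0.92), Fam46c (0.90) and Bet1 (0.90), most of them genes of the secretory pathway. For Ighm they were Sfn (0.88), Ebp (0.87) and Tmbim4 (0.87). Ighg1 averaged 6630 CPM in PC and 417 in prePC, its next highest state, and Ighg2b 1840 in PC and 82.6 in DZ. The contrast of PC with the other states thus enters these r, and a tie within a state was not tested. The sums also share mice, wells and library depth, so the values describe this set only.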

How the data were processed

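Per the labels' protocols, cells were tagged by mouse and sequenced with a 10x 5′ v2 kit. The authors deposited raw UMI counts per gene and cell with their state names and mouse; Cell Ranger, Seurat and GRCm38 (mm10) are named per the submitters' processing notes, with versions and doublet treatment not given in the sources used here. All 6619 deposited cells were used with no further filter or doublet caller. Counts were summed per mouse and state (at least 10 cells, 3 for prePC). Shares were tested over mice with exact permutation tests (scipy 1.17.1) and all genes with edgeR 4.0.16 quasi-likelihood tests (R 4.3.3), after its filter on low counts, with the mouse as block. The same mouse gave all its states, which is where the pairing comes from. Alternatives were DESeq2 1.42.0, its size factors, no filter, no block, 1 well per state, other minimums and leaving out each mouse. Scripts were tested on simulated data. Mice are animals of a day, and intervals are 95%. The 8 members are named throughout; genes of 3 lists are named by smallest p, up to 4 per list, and some of these are not reported here. Members and lists were chosen with earlier results of these data known.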

Additional observations from a re-analysis of the deposited data

Results flagged for a closer look

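In 48 groups of one gene and one state, a highest or lowest mouse was looked for whose gap to the nearest other mouse, divided by the range, passed Dixon's 95% critical value, which chance does in about 1 in 20 groups. Igha in LZ was 2.05% in day 22 mouse 1, and 1.26% to 1.35% in the other mice. In preMem, Ighd was 21.2% in day 22 mouse 2 (14.8% to 17.1% in the others), Ighg2c was 2.53% in the same mouse (0.357% to 0.73%), and Igha was 4.22% in day 22 mouse 1 (0% to 1.52%). In prePC, Ighe was 0.32% in day 10 mouse 2, which is 2 UMIs, and 0% in the other mice. Those mice had fewer heavy chain UMIs in prePC, where 3 counts of the total would allow 1.36% to 6.82%. These limits lie above 0.32%, so the flag does not tell day 10 mouse 2 from the others. In PC, Ighd was 0.0263% in day 10 mouse 1 (0% to 0.00297%), which is 1 UMI, and Ighe was 2.46% in day 10 mouse 2 (0% to 0.841%).

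The course of Ighg3 over days differed between preMem and LZ by −0.228 points per day (exact p = 0.0444, adjusted over 16 tests 0.254), so it did not pass after adjustment.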

How the results depend on the processing

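Of 35 member results called by edgeR, 25 were called under every one of their 10 to 12 alternatives. Ighm in prePC against LZ turned to −0.23 with non-PC-well cells. Counts of members between states are those with 1 direction in every mouse, and counts over days those with an exact p under 0.05, with the value as reported in brackets. With the mean over cells there were 0 (1) for prePC against PC, and over days 3 (5) in DZ, 3 (0) in DZ minus LZ and 0 (1) in preMem minus LZ. With 30 cells per sum PC against preMem had 7 (4), over fewer mice. Without Ighd in the sum it had 2 (4), and preMem against LZ 0 (2). With non-PC-well cells, 4 (2) members had an exact p under 0.05 over days in LZ. By leading gene, 1 UMI gave 2 (1) for DZ, 1 (0) for LZtoDZ and 1 (0) for prePC, each against LZ. At least 10 UMIs gave 0 (1) for DZ and 0 (2) for preMem. A leading gene over 75% gave 0 (1) for DZ, 1 (3) for PC and 0 (2) for preMem. Thinning to 3 UMIs gave 1 (3) for PC against LZ and 2 (0) for prePC against PC.

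Without the replicate block, prePC against PC had 2 members with an exact p under 0.05. With the block the count was 0 by construction, because the smallest exact p possible with 5 mice is 0.0625. Without the block edgeR called 2578 genes for DZ against LZ (3181 with it). DESeq2 called 1606 genes for DZ against LZ, and 458 for prePC against LZ (689 by edgeR). With no filter on low counts the calls were 4164 for PC against preMem (2283), 1490 for prePC against PC (892), 276 for days in LZ (148), 468 in DZ (51) and 92 in preMem (3).

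Leaving out 1 mouse at a time gave 17 to 73 genes for days in DZ, 25 to 127 in LZ, 4 to 22 in preMem, 332 to 768 for prePC against LZ and 472 to 931 against PC. Members by leading gene then numbered 1 to 2 for DZ, 2 to 4 for preMem and 0 to 1 for prePC against LZ, and 0 to 2 for prePC against PC. Members by share with 1 direction numbered 0 to 3 for prePC against LZ and 1 to 4 against PC. Members with an exact p under 0.05 over days numbered 0 to 3 in DZ, 0 to 3 in LZ, 0 to 1 for DZ minus LZ and 0 to 3 for preMem minus LZ. The zeros in DZ and LZ came without a day 16 mouse, when the smallest exact p possible is 0.0667. Day 16 is the mean day and has no weight in the slope, so the Ighm slope is then −2.16 points per day in LZ and −1.86 in DZ by construction. The cause of the other moves was not tested. Rare genes rest on few UMIs, such as 66 of Ighe in LZtoDZ.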
